A study of Fukomys damarensis and Heterocephalus glaber and Mus musculus with 160 samples.

Results

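The guinea pig heart was profiled for 3 histone marks in the same animals, and the marks were compared with each other. The 9 libraries were all those whose titles named guinea pig, heart and a histone antibody: 3 for H3K4me3, 3 for H3K27ac and 3 for H3K4me1. They are 9 of the 99 histone peak lists and of the 116 peak lists of all kinds in a series of 160 samples, which compares liver and heart chromatin of mouse, guinea pig and 2 mole-rats, the naked and the Damaraland mole-rat. The animals were GuineaPig7, GuineaPig8 and GuineaPig9, each a wild-type adult male aged 2.3 months, and each gave 1 library per mark and 1 input library of its heart. The assay was chromatin immunoprecipitation with sequencing (ChIP-seq): crosslinked chromatin of the diced whole heart was fragmented, an antibody pulled down the fragments that carried a mark, and places with more reads than the input were listed as peaks.

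The marks sit on histone H3, the protein around which DNA is wound. H3K4me3, trimethylation of lysine 4, is laid down around the start sites of transcribed genes, while H3K4me1, monomethylation of the same lysine, is typical of enhancers and of the flanks of promoters; since a single lysine carries either methylation state, both marks at a place mean different histone tails, alleles or cells. H3K27ac, acetylation of lysine 27, is found at active promoters and active enhancers, and enhancers with H3K4me1 but no H3K27ac are usually called primed. A heart holds cardiomyocytes, fibroblasts, endothelial and other cells, so marks that overlap in these lists need not share a cell, and a mark in fewer cells cannot be told apart from less of it in each cell. An annotation of the guinea pig build was not used here, so peaks were described by position and no gene or cell type marker was assigned to them.

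H3K4me3 gave fewer and, over whole lists, wider peaks than the other marks. The H3K4me3 lists held 21481 peaks in GuineaPig7, 24629 in GuineaPig8 and 23231 in GuineaPig9. The H3K27ac lists held 93399, 97784 and 79688 peaks in the same order of animals. The H3K4me1 lists held 90479, 106576 and 130362 peaks. The order of the animals was thus not the same for each mark: GuineaPig9 had the shortest H3K27ac list and the longest H3K4me1 list. Its libraries also belong to another library series (names beginning vl) than those of GuineaPig7 and GuineaPig8 (do), so animal and series cannot be told apart. The lists give no read totals, so the sequencing depth behind them is unknown.

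The median peak width was 901.7 ± 128.6 bases for H3K4me3 (SD, n = 3 animals), 458.3 ± 41.1 for H3K27ac and 471.7 ± 32.7 for H3K4me1. Among the 21481 peaks of lowest p in every list, the length of the shortest list, the order of widths turned: 964.7, 1369 and 1002 bases. H3K4me3 peaks covered 24.3 ± 1.87 Mb (SD, n = 3 animals), H3K27ac peaks 69.7 ± 9.13 Mb and H3K4me1 peaks 72.7 ± 14.7 Mb. That is 0.944%, 2.70% and 2.82% of the 2578 Mb that the 688 scaffolds span up to their last peak. A −log10 q of at least 4 was reached by 94.8% of H3K4me3 peaks, 75.7% of H3K27ac peaks and 61.7% of H3K4me1 peaks, and the remainder of each list lay closer to the calling threshold (a q of 0.05). Fold, −log10 p and −log10 q are the values of the authors' peak caller against the input of the same animal. Levels of fold were compared only within a list; between lists, ranks of fold and the share of peaks past a −log10 q of 4 were set side by side. All 3 lists of an animal were called against the same input library, which the marks therefore share.

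Overlap was counted within an animal, and peaks of different marks overlapped when the shared bases reached 50% of the shorter peak. Most H3K4me3 peaks lay on H3K27ac. The share of H3K4me3 peaks overlapped by H3K27ac was 91.1% in GuineaPig7, 83.8% in GuineaPig8 and 77.4% in GuineaPig9, a mean of 84.1% ± 6.86 (SD, n = 3). Only 33.5% ± 5.56 of H3K4me3 peaks were overlapped by H3K4me1, with 32.9%, 28.2% and 39.3% in the same order. In every animal H3K27ac covered more H3K4me3 peaks than H3K4me1 did, and the lowest share with H3K27ac was above the highest share with H3K4me1.

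Seen from H3K27ac, the order was the other way round. H3K4me3 overlapped 23.0% of H3K27ac peaks in GuineaPig7, 19.9% in GuineaPig8 and 24.8% in GuineaPig9 (mean 22.6% ± 2.46, SD, n = 3), while H3K4me1 overlapped 45.5%, 44.2% and 51.8% (mean 47.1% ± 4.08). The H3K27ac lists held several times as many peaks as the H3K4me3 lists. H3K4me1 peaks were seldom on H3K4me3, with 8.44%, 6.70% and 7.52% (mean 7.55% ± 0.870), and more often on H3K27ac, with 44.9%, 45.4% and 31.5% (mean 40.6% ± 7.89). The low value of 31.5% was that of GuineaPig9, whose H3K4me1 list was the longest.

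**Figure D1:**
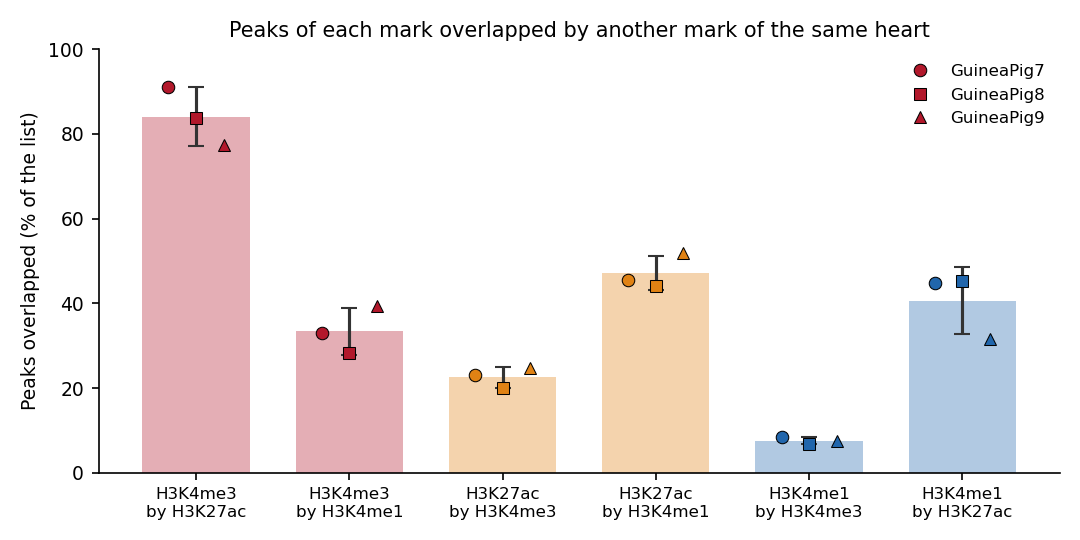
Share of the peaks of the first mark (x axis) overlapped by a peak of the second mark in the same animal, in percent of the list (y axis). Bars are means, error bars SD over 3 animals and symbols the animals; H3K4me3 by H3K27ac (77.4% to 91.1%) stands above every other pairing, and H3K4me1 by H3K4me3 (6.70% to 8.44%) below.

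These 6 comparisons could not pass a threshold of 0.05: with 3 libraries against 3, the smallest two-sided exact permutation p is 0.1. In 5 of the 6 the groups did not overlap, each with an exact permutation p of 0.1 and 0.12 after Benjamini-Hochberg adjustment. The exception was the pair H3K27ac and H3K4me1 seen from either side, 47.1% against 40.6%, with an exact permutation p of 0.4; without GuineaPig9 the difference of 6.56 percentage points was −0.31. These shares changed with the number of peaks kept. With the 21481 peaks of lowest p in every list, H3K4me3 overlapped 63.9% ± 6.42 of H3K27ac peaks and H3K4me1 26.3% ± 1.02 (SD, n = 3), so the order of these shares reversed, while H3K4me3 was still more often on H3K27ac (65.8% ± 5.34) than on H3K4me1 (10.3% ± 2.09). This cut kept the whole H3K4me3 list of GuineaPig7 and most of the other H3K4me3 lists. Of the H3K27ac and H3K4me1 lists it kept only a minor part, the strongest peaks by p. Between nearly all H3K4me3 peaks and the strongest H3K27ac peaks, the marks thus met in most cases from both sides.

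What counts as overlap mattered more for H3K4me3 on H3K4me1 than for H3K4me3 on H3K27ac. With 1 shared base, 53.1%, 49.2% and 63.1% of H3K4me3 peaks met an H3K4me1 peak (mean 55.2% ± 7.17, SD, n = 3), against 33.5% at the 50% rule. Asking that the H3K4me3 summit, the position of highest signal in the peak, lie inside an H3K4me1 peak left 12.7%, 13.1% and 18.8% (mean 14.9% ± 3.41). For H3K27ac the same 3 rules gave 84.9%, 84.1% and 82.3% of H3K4me3 peaks. H3K4me1 thus often overlapped an H3K4me3 peak without covering its summit, and H3K27ac covered the summit in nearly all peaks it met. Over overlapping pairs at the 50% rule, 74.0% ± 3.11 of H3K4me1 summits lay inside the H3K4me3 peak.

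By number of marks, 10.2% ± 3.34 of H3K4me3 peaks had only that mark, 62.0% ± 4.00 had 2 marks and 27.8% ± 3.89 had all 3 (SD, n = 3). Of H3K27ac peaks, 38.5% ± 5.75 stood alone and 8.15% ± 0.741 had all 3 marks. Of H3K4me1 peaks, 57.0% ± 7.04 stood alone and 5.15% ± 1.36 had all 3 marks. The shares with 1 mark and with 3 marks did not overlap between any pair of marks over the 3 animals, each of the 6 comparisons having an exact permutation p and an adjusted p of 0.1, the smallest possible. By the summit rule the order of H3K27ac and H3K4me1 with 3 marks turned: 2.55%, 1.89% and 3.26% of H3K27ac peaks (mean 2.57%) and 6.15%, 3.95% and 3.42% of H3K4me1 peaks (mean 4.51%), a difference of −1.94 percentage points. The shares of H3K4me3 and H3K27ac changed with the peaks kept: with the 21481 of lowest p in each list, which for H3K27ac were also wider, peaks with 3 marks made up 7.36% of H3K4me3 and 9.82% of H3K27ac peaks, and peaks with 1 mark 31.2% and 19.6%.

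Split by partner, the commonest H3K4me3 peak was the kind with H3K27ac and no H3K4me1, the pattern textbooks give for an active promoter. It made up 60.6%, 60.4% and 47.8% of the lists of GuineaPig7, GuineaPig8 and GuineaPig9 (mean 56.3% ± 7.34, SD, n = 3). H3K4me3 with H3K4me1 and no H3K27ac was the rarest class and varied most relative to its mean, with 2.38%, 4.87% and 9.70%. GuineaPig9 had the highest share, and its H3K27ac list was the shortest and its H3K4me1 list the longest. Of H3K27ac peaks, 39.0% ± 3.62 had H3K4me1 and no H3K4me3, the pattern given for an active enhancer, and 14.4% ± 1.76 had H3K4me3 alone as partner. Of H3K4me1 peaks, 35.4% ± 7.12 had H3K27ac only, and 2.40% ± 0.873 had H3K4me3 only.

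The same picture was taken per region, by joining all peaks of an animal that shared a base. This gave 123543 regions in GuineaPig7, 140035 in GuineaPig8 and 146588 in GuineaPig9. Regions with all 3 marks numbered 11043, 10896 and 11797, so their number varied least of the 7 combinations relative to its mean (11245 ± 483, SD, n = 3). They were 8.26% of the regions but 23.6% of the bases, with a median width of 2039 bases against 506 for all regions. Regions of H3K27ac with H3K4me1 numbered 27528, 32082 and 29323 and held 33.5% of the bases.

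Regions with a single mark varied more between animals. H3K4me1 alone marked 42255, 48211 and 75142 regions, and H3K27ac alone 33664, 38181 and 20596. GuineaPig9 was the highest of the animals for the first and the lowest for the second, as its list lengths were. H3K4me3 alone marked 1192, 2335 and 2315 regions, and H3K4me3 with H3K4me1 517, 1262 and 2395. Without GuineaPig9 the mean of that last combination was 889.5 in place of 1391. Joined over all 9 lists on scaffolds with a peak beyond 1 Mb, 164449 regions were found, and 35093 of them (21.3%) had the same combination of marks in all 3 animals. Those with the same combination were mostly H3K27ac with H3K4me1 (12314), all 3 marks (8416), H3K4me1 alone (8321) and H3K27ac alone (3675); H3K4me3 with H3K27ac made up 1891, H3K4me3 with H3K4me1 239 and H3K4me3 alone 237.

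The 2 regions of each combination that ranked highest by fold over all their lists show the upper end of the combinations, not a typical member. Positions are in the build Cavpor3.0, counted from 1, and ranked by values of these same lists. Over the 8416 regions with 3 marks in all animals, the median fold was 65.0 for H3K4me3, 19.1 for H3K27ac and 6.03 for H3K4me1. For H3K4me3 with H3K27ac it was 27.5 and 11.7. The H3K27ac median was 7.48 with H3K4me1 and 5.86 alone. With all 3 marks, DS562861.1:327954-336462 spanned 8509 bases. Its highest H3K4me3 fold was 245.3, 145.6 and 152.4 in GuineaPig7, GuineaPig8 and GuineaPig9, its H3K27ac fold 68.0, 56.04 and 38.9, and its H3K4me1 fold 10.6, 10.4 and 11.9. The H3K4me3 summits lay at 329307, 329310 and 329272, and the highest H3K4me1 summits at 333498, 328256 and 334126. H3K4me3 thus peaked at 1 place within 38 bases in the 3 animals, and H3K4me1 peaked to either side of it, 1054 to 4854 bases away. At the second, DS562859.1:44978176-44984001, the H3K4me1 summits lay 1248 to 1618 bases before those of H3K4me3. Both regions had peaks in all 9 liver lists.

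With H3K4me3 and H3K27ac but no H3K4me1, DS562904.1:2789223-2791789 had H3K4me3 folds of 317.8, 184.4 and 183.9 and H3K27ac folds of 122.3, 95.8 and 63.3. Its summits of both marks in all 3 animals lay between 2789674 and 2789711. The second, DS562883.1:18338050-18339526, had H3K4me3 folds of 197.2, 189.6 and 190.8. Both had peaks in all 9 liver lists, those of H3K4me1 included.

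With H3K27ac and H3K4me1 but no H3K4me3, DS562856.1:35669270-35677595 spanned 8326 bases, with H3K27ac folds of 45.9, 60.8 and 39.4 and H3K4me1 folds of 10.3, 12.2 and 11.6. The second, DS562874.1:33674180-33694639, spanned 20460 bases, with H3K27ac folds of 40.8, 58.5 and 29.8. Both had H3K27ac and H3K4me1 peaks in the liver of all 3 animals too. H3K27ac alone was weaker at its best: DS562866.1:4812475-4814269 had folds of 16.0, 18.7 and 18.7 and no peak of any mark in the 9 liver lists, and DS562893.1:3854702-3857250 had 15.5, 15.7 and 20.7. The latter had an H3K27ac peak in the liver of all 3 animals, and peaks in 6 of the 9 liver lists.

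Away from H3K27ac, the strongest H3K4me3 was far lower, in pools of fewer regions. The median H3K4me3 fold was 8.02 over the 239 regions with H3K4me1 and 7.84 over the 237 of H3K4me3 alone. It was 27.5 over the 1891 regions with H3K27ac. The best region of H3K4me3 with H3K4me1, DS562865.1:34526738-34527680, had H3K4me3 folds of 24.7, 15.4 and 25.6 and H3K4me1 folds of 11.1, 7.08 and 6.00. The next, DS562900.1:5509086-5510412, had H3K4me3 folds of 27.01, 24.3 and 21.5. Neither had an H3K4me3 peak in liver, where both had an H3K4me1 peak in all 3 animals. The best region of H3K4me3 alone, DS562880.1:1672652-1673710, reached 63.5, 40.8 and 60.8, and the next, DS562883.1:26181868-26182463, 30.6, 30.5 and 28.3; both had an H3K4me3 peak in all 3 livers. H3K4me1 alone reached 10.8, 8.53 and 11.2 at DS562858.1:69009244-69011127 and 9.24, 9.19 and 12.4 at DS562868.1:37252312-37254196, levels close to those of H3K4me1 in the named regions with other marks. Both had an H3K4me1 peak in all 3 livers.

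At the 50% rule, median fold was higher with more marks for H3K4me3 and H3K27ac. For H3K4me1 its level differed little, while its rank within the list rose from 1 to 2 marks. The median fold of H3K4me3 peaks with 1 mark was 6.35, 7.09 and 6.90 in GuineaPig7, GuineaPig8 and GuineaPig9. With 2 marks it was 33.3, 27.6 and 29.0, and with 3 marks 38.0, 28.1 and 35.3. The step thus lay between 1 and 2 marks: the log2 ratio of 2 over 1 was 2.14 ± 0.22 (SD, n = 3), and that of 3 over 2 was 0.17 ± 0.13. By the summit rule the ratio of 2 over 1 was 2.38, that of 3 over 2 was −2.26 and that of 3 over 1 was 0.12, so H3K4me3 peaks whose summit lay inside peaks of both other marks were about as low as those with 1 mark. At the 50% rule the step went with H3K27ac: H3K4me3 peaks with H3K27ac only had a median fold of 35.6 ± 4.04 and those with H3K4me1 only 6.83 ± 0.385, next to 6.78 ± 0.383 for H3K4me3 alone.

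H3K27ac peaks had their larger step between 2 and 3 marks. Their median fold was 4.83, 4.75 and 5.25 with 1 mark, 6.22, 6.41 and 6.71 with 2 and 17.8, 16.3 and 13.6 with 3. The log2 ratio of 2 over 1 was 0.39 ± 0.04 (SD, n = 3) and that of 3 over 2 was 1.29 ± 0.25. The ratio of 3 over 2 was 0.34 by the summit rule, 0.45 with an equal number of peaks and 0.39 among peaks between the quartiles of width, and by the first of these it was below that of 2 over 1, 0.46. At the 50% rule this step went with H3K4me3: H3K27ac peaks with H3K4me3 only had a median fold of 11.9 ± 1.35 and those with H3K4me1 only 5.76 ± 0.267. H3K4me1 peaks stayed between 4.42 and 5.25 in all classes of number, with a log2 ratio of 0.22 ± 0.03 for 2 over 1 and −0.02 ± 0.04 for 3 over 2. The quartiles of H3K4me1 fold lay close, at 4.00 and 5.70 on average, so small ratios were larger steps in rank. The median percentile of fold within the H3K4me1 list was 40.5, 41.4 and 42.9 with 1 mark. It was 63.1, 61.4 and 66.9 with 2 marks and 62.1, 61.0 and 63.8 with 3.

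**Figure D2:**
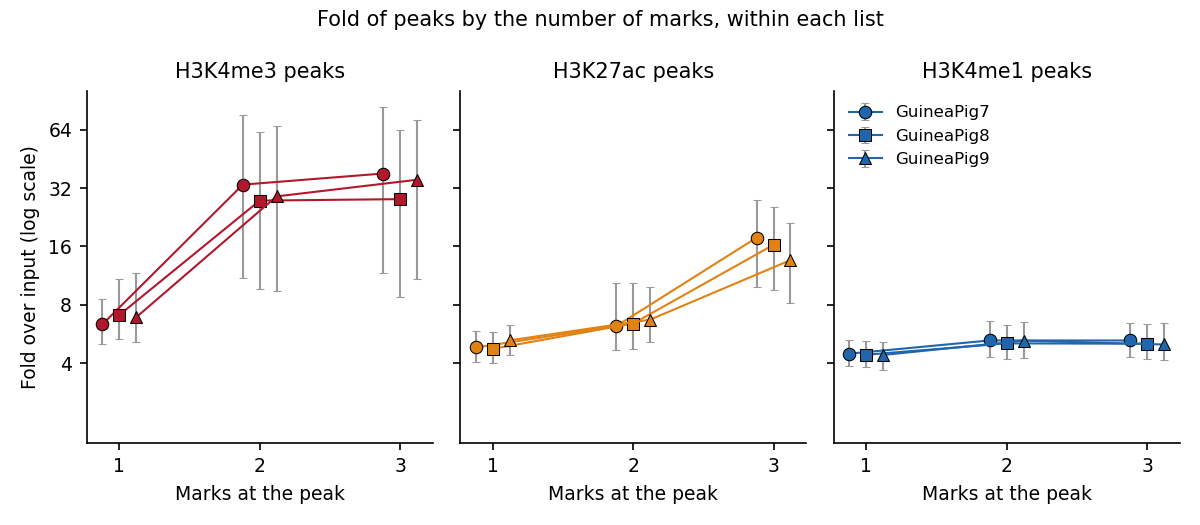
Median fold over input (y axis, log scale) of peaks with 1, 2 or 3 marks by the 50% rule (x axis) in each list; vertical lines run from the lower to the upper quartile of peaks, and symbols are the animals. H3K4me3 steps up from 6.35 to 7.09 with 1 mark to 27.6 to 33.3 with 2, H3K27ac from 6.22 to 6.71 with 2 marks to 13.6 to 17.8 with 3, and H3K4me1 stays between 4.42 and 5.25.

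Each of the 9 log2 ratios had 1 sign in all 3 animals and a two-sided exact sign-flip p of 0.25, the smallest that 3 animals allow, so none can pass the threshold. Width moved with fold. H3K4me3 peaks with 3 marks were 3.38 ± 0.211 times as wide as those with 1 mark (medians of 1247, 984 and 1289 bases against 344.5, 297 and 401), and H3K27ac peaks 4.65 ± 0.510 times (1465, 1633 and 1395 against 289, 341 and 342). H3K4me1 peaks with 3 marks were 1.31 ± 0.009 times as wide. By the summit rule these ratios were 1.19 ± 0.169 for H3K4me3 and 1.99 ± 0.233 for H3K27ac, and with an equal number of peaks 2.39 and 1.91. Among peaks between the lower and upper quartile of width of their list, the H3K4me3 ratio of 3 over 2 marks was −0.20, with the opposite sign. With an equal number of peaks in every list it was −0.13.

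The deciles of each list by fold show how the partners are spread. In the lowest decile of H3K4me3 peaks, 68.0%, 61.1% and 48.3% were overlapped by H3K27ac, and in the highest decile 100%, 99.9% and 99.8%. Overlap with H3K4me1 was level, 38.3% ± 6.68 in the lowest decile and 33.6% ± 5.16 in the highest (SD, n = 3). In H3K27ac the highest decile was mainly the part on H3K4me3, with 93.6%, 81.7% and 85.5% overlapped, against 5.36%, 4.02% and 6.78% in the lowest decile. Overlap of H3K27ac with H3K4me1 was highest in the eighth decile, 58.0% ± 3.63, and 51.3% ± 3.89 in the highest.

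Strong H3K27ac peaks hardly ever stood alone: 0.535%, 1.27% and 0.728% of the highest decile had neither other mark, against 60.3%, 65.3% and 55.4% of the lowest. Even in the highest decile of H3K4me1 only 12.2% ± 1.14 lay on H3K4me3, while the share on H3K27ac went from 29.0% ± 7.65 in the lowest decile to 72.1% ± 6.65 in the highest. Strong H3K4me1 peaks were thus mostly on H3K27ac away from H3K4me3.

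**Figure D3:**
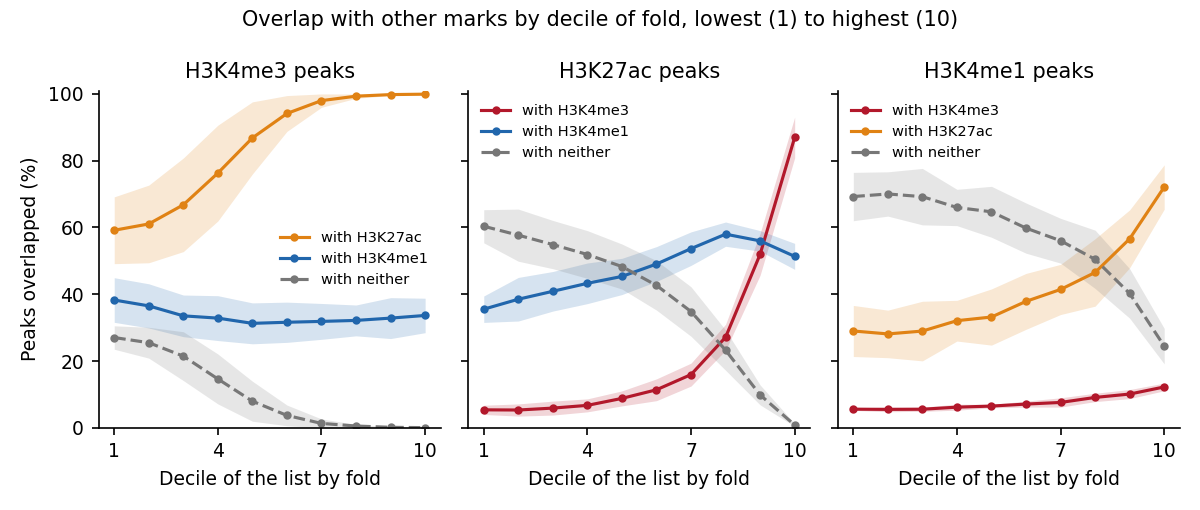
Share of peaks overlapped by each other mark, or by neither (y axis, percent), in each decile of a list ordered by fold from lowest (1) to highest (10) (x axis); lines are means of 3 animals and bands SD. H3K4me3 reaches 99.9% with H3K27ac in its highest decile, H3K27ac 86.9% with H3K4me3, and H3K4me1 72.1% with H3K27ac.

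Over overlapping pairs of peaks of the same animal, the rank correlation of fold was 0.58, 0.37 and 0.41 between H3K4me3 and H3K27ac. It was 0.07, 0.07 and 0.08 between H3K27ac and H3K4me1, and −0.06, −0.10 and −0.15 between H3K4me3 and H3K4me1. These run across peaks of lists called against 1 input and describe the lists only. For comparison, the fold of the same mark in a pair of animals correlated at 0.86 to 0.90 for H3K4me3, 0.55 to 0.59 for H3K27ac and 0.21 to 0.23 for H3K4me1. H3K4me1 fold was thus poorly ordered even between hearts.

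Distance between summits set the marks apart as well. The summit of an H3K4me3 peak and that of the overlapping H3K27ac peak were a median of 67 bases apart in GuineaPig7, 79 in GuineaPig8 and 80 in GuineaPig9 (mean 75.3 ± 7.23, SD, n = 3). For H3K27ac and H3K4me1 the medians were 224, 207 and 246 bases (mean 225.7 ± 19.6). For H3K4me3 and H3K4me1 they were 494, 409 and 442 bases (mean 448.3 ± 42.9). The 3 pairs did not overlap in any animal, with an exact permutation p and adjusted p of 0.1 for each of the 3 comparisons, the smallest possible. The order of the last 2 pairs depended on which peaks were compared. With an equal number of peaks the medians were 562 ± 37.5 bases for H3K27ac and H3K4me1 (524 to 599) and 602.3 ± 17.2 for H3K4me3 and H3K4me1 (590 to 622), which overlapped (exact permutation p of 0.3). By the summit rule they were 181.7 ± 33.6 (211, 145 and 189) and 177.3 ± 13.3 (185, 162 and 185), a difference of 4.33 bases with the opposite sign (exact permutation p of 0.8). H3K4me3 and H3K27ac stayed the closest pair, at 72.0 and 72.7 bases.

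The same mark in a pair of animals gives the scale on which summits repeat: 41.7 bases for H3K4me3, 109 for H3K27ac and 164 for H3K4me1 (means of 3 pairs of animals). The median distance of H3K4me3 and H3K27ac summits in 1 heart was below that of H3K27ac summits of different hearts. These medians cover unlike sets, a mean of 19398 pairs at H3K4me3 peaks against 61870 pairs over the H3K27ac lists. The repeat of H3K27ac summits at H3K4me3 peaks alone was not measured. Summits of H3K4me3 and H3K4me1 were farther apart than the repeat of either mark over its own lists. Taking the marks from different animals left the medians at 75.5, 238.7 and 451.3 bases. Within 150 bases, about the length of DNA in a nucleosome, lay 66.9% of the H3K4me3 and H3K27ac pairs, 38.2% of the H3K27ac and H3K4me1 pairs and 20.0% of the H3K4me3 and H3K4me1 pairs.

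Counted around every H3K4me3 summit whether or not peaks overlapped, H3K4me1 summits were fewer at the centre than at 600 to 800 bases. There were 7.68, 8.84 and 11.02 H3K4me1 summits per 100 H3K4me3 summits within 200 bases in GuineaPig7, GuineaPig8 and GuineaPig9, and 15.5, 17.0 and 17.7 at 600 to 800 bases. H3K4me1 summits thus stood highest in the step of 600 to 800 bases on average (16.7), and fell to 5.65 by 3800 to 4000 bases. H3K27ac had 69.7, 57.0 and 54.5 summits per 100 in the centre, went to a low of 9.93 at 200 to 400 bases and rose again to 16.0 at 600 to 800 bases. Both marks thus had more summits at 600 to 800 than at 200 to 400 bases, and of these H3K27ac alone was highest in the centre. H3K4me3 summits around each other also rose, from 1.82 per 100 at 200 to 400 bases to 10.9 at 600 to 800. H3K27ac summits around those over 5 kb from H3K4me3 went from 6.22 to 20.6 over the same steps. How much of the H3K27ac rise goes with the spacing of neighbouring peaks was not tested. With H3K27ac as the centre and away from H3K4me3 the picture differed. Around H3K27ac summits over 5 kb from any H3K4me3 summit, H3K4me1 summits were most frequent in the centre, with 25.6, 26.3 and 28.8 per 100. H3K27ac summits near H3K4me3 were not used as centres, so the centre mark and the distance from H3K4me3 cannot be told apart.

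**Figure D4:**
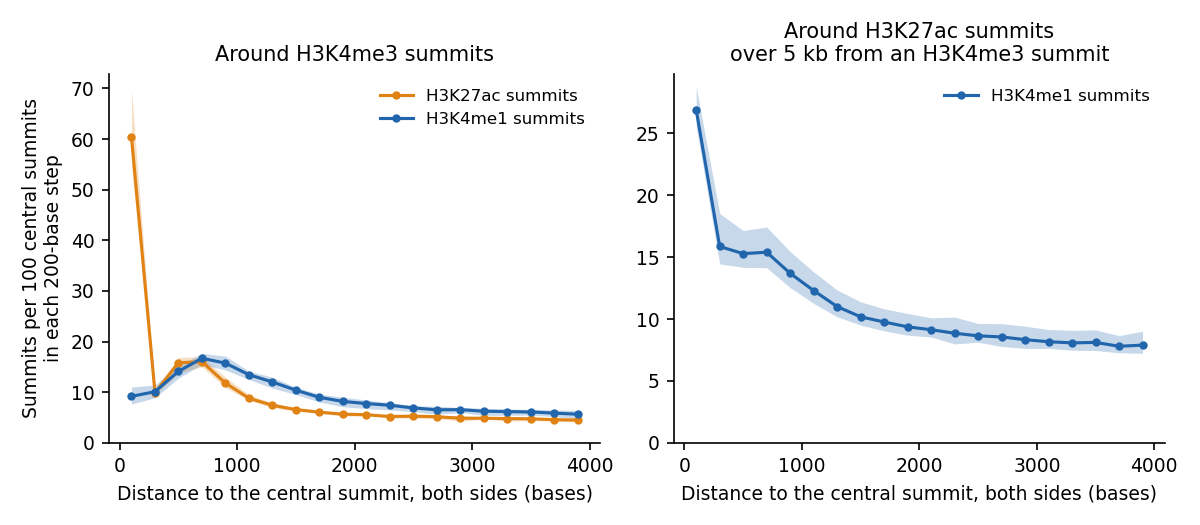
Number of summits per 100 central summits in each step of 200 bases (y axis) against distance on both sides (x axis, bases), around H3K4me3 summits (left) and around H3K27ac summits over 5 kb from H3K4me3 (right); lines are means and bands the range of 3 animals. On the left H3K27ac starts at 60.4 and H3K4me1 at 9.18 with its highest step of 16.7 at 600 to 800 bases, and on the right H3K4me1 starts at 26.9.

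At single H3K4me3 peaks the flanking H3K4me1 was usually on 1 side. An H3K4me1 summit lay within 2 kb outside the peak on both sides of 17.2%, 22.9% and 23.9% of H3K4me3 peaks, on 1 side of 42.6%, 44.7% and 46.1%, and on neither side of 40.2%, 32.4% and 29.9%. Wide H3K4me3 peaks more often had H3K4me1 around them and more often held an H3K4me1 summit. A longer peak has more room for a summit: the median width was 1877 bases in the widest quartile and 296 in the narrowest. Summits inside were not counted per base. In the widest quartile 28.2% ± 3.85 had H3K4me1 on both sides and 45.2% ± 6.23 held an H3K4me1 summit, against 19.8% ± 4.08 and 15.2% ± 3.41 in the narrowest quartile (SD, n = 3). H3K4me3 peaks without H3K27ac had H3K4me1 on neither side in 63.1%, 51.5% and 46.7%, against 38.0%, 28.7% and 25% of those with H3K27ac.

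The median fold of H3K27ac peaks was highest within 500 bases of an H3K4me3 summit and level from 1 kb on, and that of H3K4me1 changed little. H3K27ac peaks within 500 bases had median folds of 15.1, 12.9 and 11.8, those at 500 to 1000 bases a mean of 7.36 (6.62 to 7.88), those at 1000 to 2000 bases 5.01, 4.94 and 5.66, and those beyond 100 kb 4.92, 5.06 and 5.51. The share of H3K27ac peaks with H3K4me1 ran the other way, from 35.3% ± 1.46 within 500 bases to 56.4% ± 5.07 at 5 to 20 kb, and was lower again beyond 100 kb, 38.3% ± 7.80 (SD, n = 3). H3K4me1 peaks had median folds of 4.95 ± 0.088 within 500 bases and 4.50 ± 0.087 beyond 100 kb. Their median percentile of fold within the list was 58.0 and 44.2 at these distances. Their overlap with H3K27ac was 60.4% ± 12.5 near H3K4me3 and 34.02% ± 9.42 in the farthest class.

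The marks differed in how well a peak and its number of marks were found again in another heart, over 6 ordered pairs of animals. Of H3K4me3 peaks 89.6% ± 3.43 (SD over pairs) overlapped an H3K4me3 peak of another animal, of H3K27ac peaks 66.6% ± 8.03 and of H3K4me1 peaks 55.4% ± 8.99. Among those found, the number of marks was the same for 63.9%, 70.3% and 73.3%. H3K27ac peaks with 1, 2 and 3 marks were found in 50.3%, 74.4% and 92.8%, and H3K4me3 peaks with 1 mark in 70.9%, against 92.1% with 2. H3K4me1 peaks were found in 45.0%, 70.2% and 65.9%. These shares depended on the peaks kept and on the overlap rule. Of the results on keeping the number of marks, 7 moved and 2 did not with an equal number of peaks. With 1 shared base, 4 moved and 5 did not. Marks and classes also differ in number and width of peaks, and the part of this was not tested.

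On average, a partner mark of another animal overlapped nearly as many peaks as that of the same animal. Single lists differed more. H3K27ac of GuineaPig7 overlapped 91.1%, 89.3% and 87.6% of H3K4me3 peaks of GuineaPig7, GuineaPig8 and GuineaPig9. For H3K27ac of GuineaPig9 the shares were 79.3%, 77.4% and 77.4% in the same order. The means were as follows. H3K27ac of another animal overlapped 83.4% of H3K4me3 peaks, against 84.1% for the same animal, and H3K4me1 of another animal 43.8% of H3K27ac peaks, against 47.1%. In bases, the Jaccard index (bases in both lists over bases in either) was 0.260 ± 0.042 for H3K4me3 and H3K27ac of the same heart, 0.255 ± 0.017 for H3K27ac and H3K4me1 and 0.053 ± 0.006 for H3K4me3 and H3K4me1 (SD, n = 3). The same mark in a pair of animals had 0.795 for H3K4me3, 0.571 for H3K27ac and 0.393 for H3K4me1. By this index lists of the same mark were nearer to each other than lists of different marks of the same animal. The index is bounded where lists differ in bases, as H3K4me3 (24.3 Mb) does from H3K27ac (69.7 Mb). As a share of the first list's bases, H3K4me3 on H3K27ac of the same heart had 79.4% and the converse 28.0%. The same mark in a pair of animals had 88.8% for H3K4me3, 73.3% for H3K27ac and 57.4% for H3K4me1.

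The liver of the same 3 animals, with 14782 to 16530 H3K4me3, 91478 to 100473 H3K27ac and 119768 to 136264 H3K4me1 peaks, gave the nearest comparison; its libraries were all of the do series. Heart H3K4me3 was less often on H3K27ac than liver H3K4me3, which had 97.4%, 96.9% and 98.6% in GuineaPig7, GuineaPig8 and GuineaPig9 (mean 97.6% ± 0.871, SD, n = 3) against 84.1% in heart. H3K4me3 with no other mark made up 10.2% ± 3.34 of the heart lists and 1.16% ± 0.381 of the liver lists. Heart H3K27ac was more often on H3K4me3, 22.6% against 14.6% ± 1.22, and less often on H3K4me1, 47.1% against 61.8% ± 5.40. H3K4me1 on H3K4me3 was 7.55% in heart and 3.58% ± 1.22 in liver, and the median distance of H3K27ac and H3K4me1 summits was 225.7 bases in heart and 311.7 ± 29.4 in liver.

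In these 6 of 15 comparisons the tissues did not overlap, each with an exact permutation p of 0.1, the smallest possible, and an adjusted p of 0.25; the other 9 overlapped. Within animals, 8 of the 15 differences had 1 sign in all 3 (exact sign-flip p of 0.25, the smallest possible, adjusted p of 0.469): these 6, H3K4me1 with 3 marks (6.70%, 4.62% and 4.13% in heart against 4.51%, 2.78% and 2.48% in liver) and the distance of H3K4me3 and H3K4me1 summits (494, 409 and 442 bases against 463, 403 and 371). With 1 shared base the last 2 turned sign, to −0.26 percentage points and −68.7 bases. The heart H3K4me3 lists were longer than those of liver. With 14782 peaks in every list, the difference in H3K4me3 on H3K27ac went from −13.5 to −5.28 percentage points and that in H3K27ac on H3K4me3 from 7.98 to 2.59, with exact permutation p of 0.3 and 0.8.

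Heart peaks with 2 or 3 marks were found more often in the liver list of the same mark and animal than peaks with 1. They were also wider and of higher median fold than peaks with 1 mark, and the part of this was not tested. Over whole lists, 59.7% of H3K4me3, 42.6% of H3K27ac and 41.2% of H3K4me1 peaks were found there. H3K27ac peaks with 1, 2 and 3 marks were found there in 22.0% ± 3.18, 50.9% ± 4.42 and 84.4% ± 0.508 (SD, n = 3). H3K4me3 peaks with 1 mark were found in 19.9%, 21.0% and 16.8%, and those with 2 marks in 70%, 65.6% and 59.6%. H3K4me3 peaks with all 3 marks were not found more often than those with 2 marks, 62.3% ± 4.17 against 65.1% ± 5.23. H3K4me3 peaks with H3K4me1 only were found as H3K4me3 in 16.1% ± 0.613. They overlapped a liver peak of any mark in 89.6% ± 3.68, about the share of all H3K4me3 peaks, 89.4% ± 2.21. H3K4me1 peaks on H3K4me3 only were found as H3K4me1 in 83.5% ± 7.44, against 36.2% ± 8.11 for H3K4me1 alone.

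The heart of the Damaraland mole-rat was the heart with most animals that had all 3 marks: 5 wild-type adult males, estimated by the labels to be 36 or 48 months old, in another assembly and from both library series. Of 15 comparisons none passed the adjusted threshold. H3K4me3 and H3K4me1 summits were a median of 399, 350, 354, 284 and 280.5 bases apart in DMR1, DMR2, DMR3, DMR4 and DMR11, all below the guinea pig values of 409 to 494, with an exact permutation p of 0.0179 and an adjusted p of 0.268. H3K4me3 with no other mark made up 28.9% ± 15.4 of the Damaraland lists (SD, n = 5) against 10.2% ± 3.34 in guinea pig (exact permutation p of 0.107), also without overlap. With 1 guinea pig or 1 Damaraland animal left out, the difference in H3K4me3 and H3K4me1 summit distance, 114.8 bases, was 92.0 to 134.5, and it was 17.6 where the H3K4me3 summit had to lie inside the H3K4me1 peak. The Damaraland H3K4me1 lists held 32893 to 158541 peaks, and that of DMR1 carries a tag that the labels do not explain. Age, species and assembly cannot be told apart here.

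**Figure D5:**
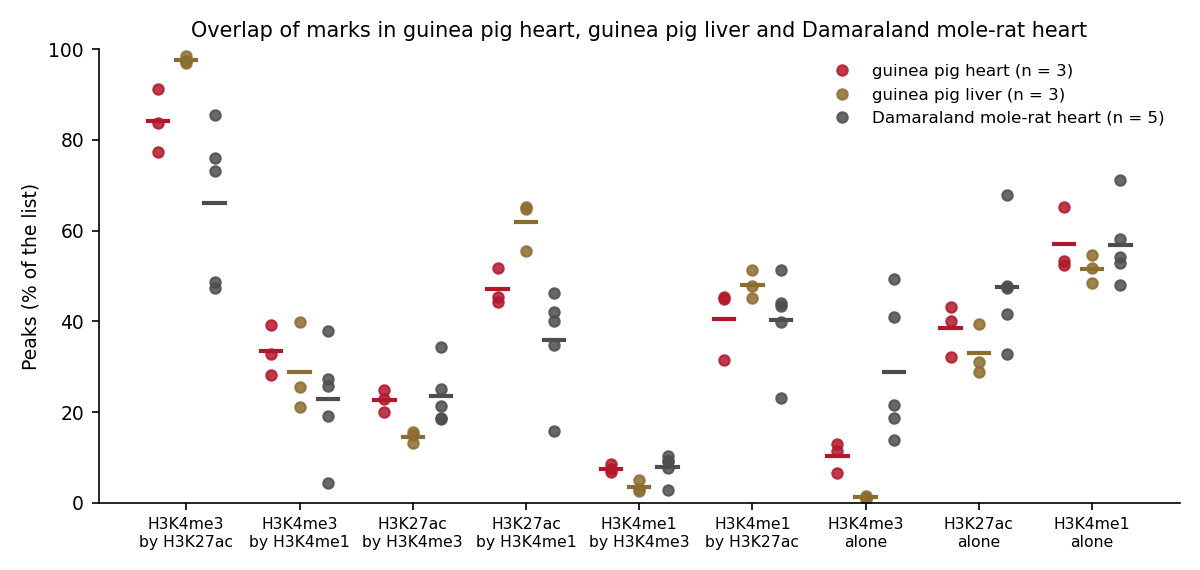
Share of peaks overlapped by another mark, or with no other mark (alone), in percent of the list (y axis), in guinea pig heart, guinea pig liver and Damaraland mole-rat heart; points are animals and lines means. Guinea pig heart lies below liver for H3K4me3 by H3K27ac (84.1% against 97.6%) and above it for H3K4me3 alone (10.2% against 1.16%), and Damaraland mole-rat heart spreads widely.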

How the data were processed

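The series' animals, tissues and antibodies were grouped by the labels, with the animal as replicate; marks of 1 animal are paired because the labels name the same animal. Deviations of log2 fold from the mean of a mark, over the 8416 regions with all 9 lists, were correlated within animals. The correlations were 0.45 to 0.47 (H3K4me3 with H3K27ac), 0.07 to 0.08 (H3K27ac with H3K4me1) and 0.08 to 0.09 (H3K4me3 with H3K4me1). They cannot test the pairing, because no value between animals stands beside them and the lists of an animal share 1 input.

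Peaks were called with MACS2, per the submitters' processing notes, as 1 list per library against the heart input of the same animal, with the build Cavpor3.0, per the file names; for version, aligner and filters: not given in the sources used here. Each deposited fold is a linear ratio over background, beside which the authors' caller wrote a −log10 p-value and a −log10 q-value for every peak. The lowest −log10 q in the 9 lists was 1.30. Peaks were 162 to 33994 bases long. A wide peak can hold several narrower ones.

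From these, overlap (50% of the shorter peak), distance of summits (for each peak of the shorter list, the nearest summit among overlapping peaks), widths and medians of fold were computed per animal with SciPy 1.17.1, pandas 2.3.3 and NumPy 2.4.6 under Python 3.11.15 (plots: Matplotlib 3.10.9). Groups were compared by two-sided exact permutation tests of means, and within-list log2 ratios of fold by exact sign-flip tests, adjusted by Benjamini-Hochberg within 7 families (57 comparisons). No fit ran across peaks, which are not replicates. The code recovered all 13 planted values in simulated lists. Regions named are the 2 of each combination with the highest mean percentile of fold. Members, comparisons and the rule were chosen with earlier results of these data known. Alternatives were another overlap rule, a −log10 q of at least 4, an equal number of peaks, peaks within 500 bases joined, scaffolds with a peak beyond 1 Mb, other summit and fold summaries, each animal left out, the animal as a block and 1 library series only. The summit rule and joined peaks for distances within the heart, the summit rule for fold, and the other overlap rules for ratios of width were added after the data were seen. Genes, sequences and inputs were not analysed here.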

Additional observations from a re-analysis of the deposited data

Results flagged for a closer look

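The median distance between H3K4me3 and H3K27ac summits in the heart of Damaraland mole-rat DMR4 was 118 bases, far above the 66 to 81 bases of the other 4 animals, of a size that chance gives in about 1 in 20 groups; 15 groups were looked at. The H3K4me3 list of this animal was the longest of its group, with 53676 peaks, and the narrowest, with a median width of 188 bases, and the part of this in the distance was not tested. It is a comparison sample, and no guinea pig group was large enough for this rule.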

How the results depend on the processing

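Within the guinea pig heart, no call could change, because none of the 27 comparisons can reach the threshold; the replicate block (the difference within each animal, smallest exact p of 0.25) gave the same values, for example 50.7 percentage points for H3K4me3 by H3K27ac minus H3K4me3 by H3K4me1, and changed no call. The differences of summit distance kept their direction, except that by the summit rule, chosen after seeing the data, H3K27ac and H3K4me1 minus H3K4me3 and H3K4me1 was 4.33 bases in place of −222.7. With an equal number of peaks, H3K27ac by H3K4me3 minus by H3K4me1 went from −24.6 to 37.7 percentage points, H3K27ac by H3K4me1 minus the converse from 6.56 to −3.98 (−2.02 at −log10 q of at least 4; −0.31 to 10.4 with an animal left out), H3K4me3 minus H3K27ac with 3 marks from 19.7 to −2.46 and with 1 mark from −28.2 to 11.6. The median widths, H3K4me3 minus H3K27ac, H3K27ac minus H3K4me1 and H3K4me3 minus H3K4me1, went from 443.3, −13.3 and 430.0 bases to −404.3, 366.7 and −37.7; the middle one was 295.3 with peaks within 500 bases joined and −42.5 to 18.5 with an animal left out. The number of joined regions went to 39397 in all and 3933 with 3 marks, and with peaks within 500 bases joined to 87906 in all. The log2 ratio of 3 over 2 marks turned to −0.13 for H3K4me3 and, among middle widths, to −0.20; for H3K4me1 it was 0.084 with 1 shared base and 0.030 among middle widths. By the summit rule, H3K27ac minus H3K4me1 with 3 marks was −1.94, and the log2 ratio of 3 over 2 marks for H3K4me3 was −2.26 (chosen after seeing the data). The width of peaks with 3 marks over those with 1 (3.38, 4.65 and 1.31 for H3K4me3, H3K27ac and H3K4me1) was 3.04, 3.99 and 1.21 at −log10 q of at least 4 and 2.39, 1.91 and 1.02 with an equal number of peaks; with peaks joined it was 6.16 for H3K27ac and 1.52 for H3K4me1. Chosen after seeing the data, 1 shared base gave 3.62, 4.09 and 1.58, and the summit rule 1.19, 1.99 and 1.17.

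Heart minus liver, the reversals were in comparisons whose groups overlapped. H3K4me3 by H3K4me1 was −20.8 with 1 shared base, −3.60 by the summit rule, −0.58 at −log10 q of at least 4 and −2.15 to 10.5 with an animal left out. H3K4me3 with 3 marks was −26.2, −7.21, −3.57 and −4.21 to 4.24 in the same order. H3K4me1 with 3 marks was −0.26 with 1 shared base, H3K27ac with 3 marks 0.34 by the summit rule, and H3K4me1 with 1 mark −0.23 to 9.13 with an animal left out. The summit distance of H3K4me3 and H3K4me1 was −68.7 with 1 shared base and −75.5 by the summit rule, and that of H3K4me3 and H3K27ac 7.33 with peaks joined and −4.00 to 2.00 with an animal left out.

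Guinea pig minus Damaraland mole-rat heart, 8 differences turned sign. H3K27ac by H3K4me3 was 0.56 at −log10 q of at least 4, 1.37 in the do series only, 10.1 with an equal number, 0.062 by the summit rule and −2.32 to 1.66 with an animal left out. H3K4me1 by H3K4me3 was 1.97 with 1 shared base, 1.24 with an equal number, 0.57 by the summit rule, 0.060 in the vl series only and −1.57 to 0.30 with an animal left out. H3K4me1 by H3K27ac was −0.76, −0.18, −0.63 and −7.76 at −log10 q of at least 4, an equal number, the summit rule and the vl series, and −4.11 to 4.77 with an animal left out. H3K4me1 with 1 mark was −0.070 with 1 shared base, −3.20 in the do series, −0.039 with an equal number, −0.59 with peaks joined and −3.87 to 3.76 with an animal left out. With 3 marks, H3K27ac was −0.86 in the do series and −0.051 by the summit rule, and H3K4me1 −1.01 in the do series and −0.68 to 0.64 with an animal left out. The summit distance of H3K4me3 and H3K27ac was 1.13 with an equal number, 8.33 in the vl series and −8.92 to 4.08 with an animal left out. That of H3K27ac and H3K4me1 was −0.33 on scaffolds beyond 1 Mb, −12.3 by the summit rule and −8.30 to 14.4 with an animal left out. The causes were not tested. Read depth is unknown, so a missing overlap can be a peak below the calling threshold.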
